A study of Ambystoma mexicanum and Ambystoma andersoni and Ambystoma maculatum with 18 samples.

Results

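The distal tip of the axolotl forelimb was compared 24 h after amputation with the same region at the moment of amputation. The axolotl, Ambystoma mexicanum, is a salamander that regrows a limb after amputation. The comparison used all 6 libraries labelled Ambystoma mexicanum out of 18 in the series, 3 collected at 0 h and 3 at 24 h. The third 0 h library was singled out for attention by its values. All 898057 features of the deposited table for this species were read. The series title gives the purpose as finding expression changes after amputation that are shared by several Ambystoma species.

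The animals were larvae, and the limb was amputated midway along the zeugopod, as the lower arm is called. The distal 1 mm of tissue was collected, and each library pooled 5 larvae. Both groups were untreated apart from the cut, as far as the labels say, and no strain, sex or age is given. A p-value here sets the change between times against the spread among these pools of the same time. Nothing in the labels says whether the pools of a time came from separate clutches or days, so differences of that kind cannot be told apart. The tissue is a mix of cell types, so fewer cells of a type and less RNA per cell cannot be told apart.

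In a salamander limb the cut surface is first covered by epidermal cells that migrate over it. An inflammatory phase and breakdown of extracellular matrix follow, and cells near the cut then enter the cell cycle and gather into the blastema, the bud from which the limb regrows. A sample at 24 h therefore falls in the wound-healing phase, before a blastema is seen. Which genes of these processes were measured could not be read from the table: its IDs carry no gene names, and 0 of them were found in a RefSeq gene table of 135668 entries. The tissue could for the same reason not be checked against marker genes. Features are therefore described by level, change and place in the assembly, and only 4 are named.

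Each value in the table is an expected count, the estimated number of reads from 1 assembled feature. Library totals ranged from 16827429 to 23412930 expected counts, and 237314 features were at 0 in all 6 libraries. After low counts were filtered out, 42641 features were tested, and these took up 97.07% to 98.26% of a library's counts. A level in CPM is a count scaled to a common library size, here with sizes adjusted by TMM, a scaling that centres the fold changes of most features. Tests are the quasi-likelihood F test of edgeR, with Benjamini-Hochberg adjustment over all 42641 features and a threshold of 0.05. Fold changes are 24 h over 0 h.

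The 6 libraries did not form 2 compact groups. Across tested features the first and second 0 h libraries correlated at r = 0.972 on log2(CPM + 1), and the first and the third 24 h libraries at 0.967. For the third 0 h library, r with its group mates was 0.827 and 0.779. Its r with the first and the third 24 h libraries was higher, at 0.879 and 0.854, and with the second 24 h library it was 0.807. The second 24 h library lay between, with r of 0.911 to both the first and second 0 h libraries and of 0.926 and 0.94 to the other 24 h libraries. These correlations run across features, which are not independent, and are given as a description.

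The first principal component held 51.9% of the variance and did not order the libraries by time. Highest on it was the third 0 h library, at 94.7, above the first and the third 24 h libraries at 74.9 and 71.0. The second 24 h library was at -21.7, and the first and second 0 h libraries were at -90.9 and -127.9. The second component, with 33.3% of the variance, separated the times, with 24 h libraries at 40.2 to 72.2 and 0 h libraries at -125.6 to -20.0.

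**Figure D1:**
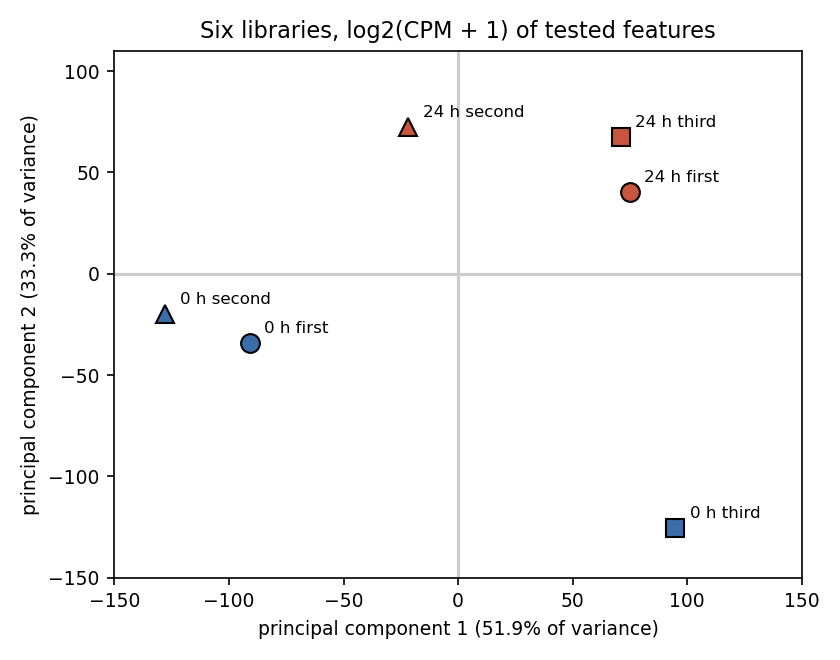
Place of the 6 libraries on principal components 1 (horizontal) and 2 (vertical) of log2(CPM + 1) over 42641 features, in the units of the component scores. Blue marks are 0 h and red marks 24 h, and the shapes only number the libraries within a time. In the plot the third 0 h library sits at the right with the first and the third 24 h libraries and at the bottom of the plot, and all 24 h libraries lie above all 0 h libraries.

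The distance of the third 0 h library was broad rather than limited to a few features. In the 14223 features averaging 5 CPM or more, 37.5% were at least 2-fold away in it from the mean of the other 0 h libraries, 2445 higher and 2891 lower. For the other 5 libraries this share was between 6.21% and 22.5%. It was 22.5% for the second 0 h library and 9.49% for the first, and the group mates of both include the third. A gap of at least 8-fold was seen in 235 features that were higher and 557 that were lower in the third 0 h library. Taken pair by pair, 4.33% of these features were at least 2-fold apart between the first and second 0 h libraries, and 33.6% and 41.8% between each of them and the third. The first 24 h library was 27.1% apart from the third 0 h library and 26.8% from the first.

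Over all tested features, the third 0 h library held the highest of the 6 values in 28.6% and the lowest in 27.6%, more than any other library. The second 0 h library followed with 22.2% and 21.3%. The remaining 4 libraries held the highest value in 9.67% to 14.6% and the lowest in 11.2% to 13.3%. For features averaging 5 CPM or more and above 0 in all libraries, the median coefficient of variation was 34.4% among the 0 h libraries and 21.3% among the 24 h libraries. Taken pair by pair, it was 14.4% between the first and second 0 h libraries, and 34.3% and 41.5% between each of them and the third. Pairs of 24 h libraries gave 12.4% to 22.4%. Values for pairs and for whole groups are not on an equal footing.

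With all 6 libraries, 517 features rose by 24 h and 32 fell, which is 1.29% of the tested features in both directions together. The rises were 1.21% of tested features and the falls 0.075%. The log2 fold change of the rises ran from 1.47 to 11.3 with a median of 3.41, and that of the falls from -5.64 to -1.74 with a median of -2.59. A floor of 3 counts per group, applied where a group held no more than that, put them at 3.42 and -2.59. The median over all tested features was -0.09. In every one of the 549 features all 24 h libraries lay beyond all 0 h libraries. Over all tested features that was so for 14.7% in the upward and 11.2% in the downward direction.

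The rises started low. Their median level at 0 h was 1.09, 1.02 and 1.03 CPM in the 3 libraries, and at 24 h it was 12.4, 11.1 and 15.6 CPM. The medians of the 3 libraries at 0 h were thus close to each other, the third included, while no 24 h library overlapped the 0 h libraries on any of these features. Together the rises held 0.337%, 0.31% and 0.29% of the tested counts at 0 h and 2.22%, 2.1% and 2.61% at 24 h. These levels describe features chosen by the same test, which favours features on which the libraries of a time agree.

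The falls were few and of moderate level. Their median was 10.02, 8.95 and 10.5 CPM in the 0 h libraries and 1.49, 1.9 and 1.49 CPM in the 24 h libraries. Their share of the tested counts went from 0.0603%, 0.0552% and 0.0592% to 0.0121%, 0.0143% and 0.00914%. Among 0 h libraries the third was the highest in 15 of the 32 falls, and the second 24 h library the highest of its time in 20.

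Most called changes were large on the fold scale. A test with this spread between libraries passes mainly large folds, so this describes the calls and not all changes. Of the rises, 40 had a log2 fold change between 1 and 2, 149 between 2 and 3, 209 between 3 and 5 and 119 of 5 or more. Of the falls, 4 lay between -2 and -1, 18 between -3 and -2, 7 had fallen by 3 to 5 on that scale and 3 by 5 or more. No call had an absolute log2 fold change under 1, while 44 rises and 53 falls called without the third 0 h library did. Of the 517 rises, 77 held no more than 3 counts at 0 h, so their folds are uncertain.

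The share of features called grew with abundance. Below a mean of 1 CPM, 75 features rose and 4 fell, 0.614% of 12862. From 1 to 10 CPM, 211 rose and 22 fell, 1.14% of 20506. From 10 to 100 CPM, 204 rose and 6 fell, 2.53% of 8287. At 100 CPM and above, 27 of 986 rose, 2.74% called, and edgeR called 0 falls there. In that class 40 falls had an unadjusted p under 0.05, and DESeq2, another count test, called 15.

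A small number of features carried much of the gain. The rises together gained 19109 CPM between the mean of 0 h and the mean of 24 h, and the 39 with the largest gains held at least as much of it as the rest. The 10 largest gains held 23.7%. A gain of at least 100 CPM was seen in 46 features and one of at least 10 CPM in 279, with a median gain of 12.0 CPM. The falls together lost 493 CPM, of which the 10 largest held 77%.

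Ax_TR508761_c0_g1 had the largest gain in CPM. It stood at 311, 260 and 425 CPM in the 0 h libraries and at 1501, 1141 and 1628 CPM in the 24 h libraries. Highest at 0 h was the third library, and the lowest 24 h library was still well above it. The means were 332 ± 84.2 and 1423 ± 253 CPM (SD, n = 3). The log2 fold change was 2.10 with an SE of 0.304 and an adjusted p by edgeR of 0.0395. Some reads of this feature were divided with other features, since its expected counts were not whole numbers in every library, so its level is uncertain to that extent.

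Ax_TR501264_c0_g2 had the second largest gain and a much larger fold. It was at 24.6, 53.1 and 24.5 CPM at 0 h and at 479, 594 and 611 CPM at 24 h. Here the second 0 h library, not the third, was the highest of its time. The mean went from 34.1 ± 16.5 to 561 ± 71.8 CPM (SD, n = 3). On the log2 scale it rose by 4.04 (SE 0.417), and edgeR gave an adjusted p of 0.0245.

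Ax_TR480527_c7_g1 had the largest loss in CPM. Its levels were 98.9, 94.5 and 127 CPM at 0 h and 11.3, 20.1 and 6.24 CPM at 24 h. The means were 107 ± 17.8 and 12.5 ± 6.99 CPM (SD, n = 3). The feature fell by 3.09 on the log2 scale with an SE of 0.466 (adjusted p by edgeR 0.0399). The second 24 h library was the highest of its time and still far below every 0 h library.

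Ax_TR459176_c8_g1 had the second largest loss, from 81.3, 93.7 and 117 CPM at 0 h to 31.3, 25.4 and 17.8 CPM at 24 h. The means were 97.2 ± 18.0 and 24.8 ± 6.76 CPM (SD, n = 3), and it fell by 1.97 on the log2 scale (SE 0.308, adjusted p by edgeR 0.0435). For this feature, as for the one before, the third 0 h library was the highest of the 6. Both features that fell, and Ax_TR501264_c0_g2, had whole-number counts in all 6 libraries.

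**Figure D2:**
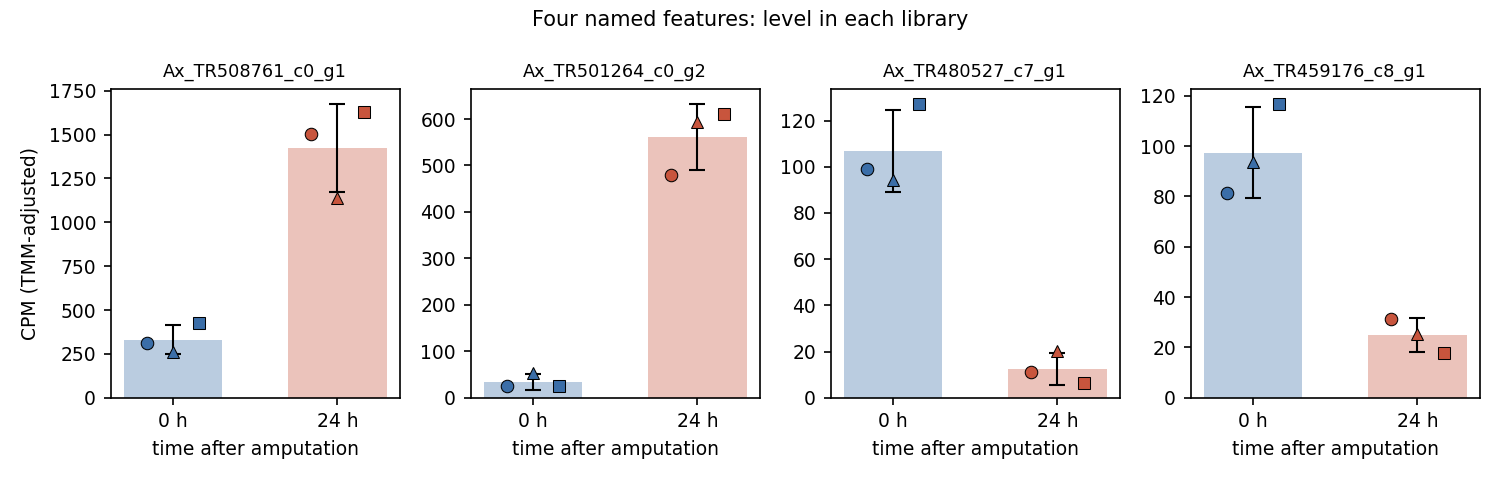
Level of the 4 named features in CPM on TMM-adjusted library sizes (vertical, each panel with its own scale from 0) at 0 h in blue and 24 h in red. Bars are means, error bars are 1 SD of 3 libraries, and points are single libraries in accession order from left to right. In each panel all 24 h points lie on 1 side of all 0 h points.

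The rises ranked 3 to 10 by gain showed the same separation at lower levels. Their means were between 17.9 and 111 CPM at 0 h and between 347 and 482 CPM at 24 h, with log2 fold changes from 2.06 to 4.71. At 0 h the third library was the lowest in 5 of these 8 features. Over all 517 rises it was the lowest of its time in 159 and the highest in 217, with ties given to the library listed first. The falls ranked 3 to 10 by loss went from means of 12.3 to 75.02 CPM to means of 2.05 to 15.2 CPM.

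Features without any count at 0 h were a small part of the rises. Of the 517, 25 had 0 counts in all 0 h libraries, and they reached between 0.956 and 14.8 CPM at 24 h, with a median of 1.42 CPM. Among all tested features, 72 had 0 counts in all 0 h libraries and counts in every 24 h library, so 25 of these 72 were called. Rises were 1.21% of all tested features, but the 72 were picked by the same values that the test used. Such features passed the filter on low counts only through the 24 h libraries. Of the tested features, 5 had 0 counts in all 24 h libraries and counts in every 0 h library. edgeR called 0 of these 5, although all 5 had an unadjusted p under 0.05 and DESeq2 called all 5. Their choice by 0 counts at 24 h favours a small p, and they passed the filter only through the 0 h libraries.

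The IDs hold a TR number, a c number and a g number, and features that differ only in the g number are here taken as 1 component. The 517 rises came from 474 components and the 32 falls from 31. Of the 32053 components with tested features, 24700 held only 1 and so could not hold several calls. Among the rest, 42 held 2 or 3 rises and 1 held more than 1 fall. Where a component held several calls, the gap between its highest and lowest log2 fold change had a median of 0.356 and reached 3.2. No component held both a rise and a fall, though with falls in only 31 components few could have. Of the groups of features that share a TR number, 1 held both.

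Features next to a rise in the assembly moved the same way more often than not. The components of the rises held 256 other tested features, which by definition were not called rises, and none was a called fall. Of these, 221 had a positive log2 fold change, 86.3%, where 45.5% of all tested features did, and their median was 1.65. In 138 of the 256 the times did not overlap, with 24 h higher, where that was so for 14.7% of all tested features. Reads that match several features of a component can be divided among them, which ties their values. Among the 126 of these neighbours whose counts were whole in all 6 libraries, 105 or 83.3% were positive. The share over all features with whole counts was not computed. The falls had 10 neighbours, of which 8 had a negative value, where 54.5% of all tested features did. Of the 7 with whole counts, 5 were negative.

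Summing the features of each component before the test gave more calls. Of 34709 components tested, 727 rose and 90 fell, 2.35% in all. Of the 474 components that held a rise at the level of features, 424 were among the 727, which is 89.5% of the former and 58.3% of the latter. For falls, 28 of 31 were among the 90, 90.3% and 31.1%.

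Features whose counts were whole in all 6 libraries made up 70.8% of those tested. They made up 72.5% of the rises and 87.5% of the falls. Tested alone, 442 of 30085 such features rose and 47 fell, 1.63% in all.

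The number of calls depended on the third 0 h library. Without it, 3327 features rose and 866 fell, 9.83% of the 42641 tested, with medians of 2.86 and -1.8 on the log2 scale. Rises were 7.8% and falls 2.03% of tested features. All 549 calls made with 6 libraries were among these, so with the library included 2810 rises and 834 falls were no longer called and no others were. It kept 15.5% of the rises and 3.7% of the falls that the other 5 libraries gave. With all 6 libraries, 50 of the 3327 rises had a negative log2 fold change and 0 of the 866 falls a positive one. The common biological coefficient of variation, edgeR's measure of spread between libraries, was 55.9% with all 6 libraries and 38.2% without the third 0 h library.

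Leaving out any other single library left edgeR with 0 calls. In those fits 4396 to 6675 features had an unadjusted p under 0.05, DESeq2 called 1087 to 2729, and the coefficient of variation was 54.7% to 60.9%. The smallest adjusted p was 0.0681, without the second 24 h library. The sign of change was the same as with 6 libraries for all 549 calls in each of these fits. This was all but fixed in advance, since in each call all 24 h libraries lay beyond all 0 h libraries. The 4 named features lost their calls in the same 5 fits, with adjusted p of 0.0792 to 0.196, and kept them without the third 0 h library.

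With the third 0 h library left out, the second 24 h library made a further difference. With both left out, 6639 features rose and 5241 fell in a comparison of 2 libraries with 2, 27.9% of tested features. Their medians were 2.28 and -1.85 on the log2 scale, and the coefficient of variation was 29.2%. Both libraries stood apart from their group mates in these same values, so leaving them out favours more calls. With all 6 libraries, 373 of the 6639 rises had a negative and 46 of the 5241 falls a positive log2 fold change. The times did not overlap over all 6 libraries in 3734 of these rises and 1381 of these falls. When the first 24 h library was left out in place of the second, 1814 rose and 176 fell, 4.67%. When the third 24 h library was, 1177 rose and 89 fell, 2.97%. All 4193 calls made without the third 0 h library were among the 11880 made without both, in the same direction.

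**Figure D3:**
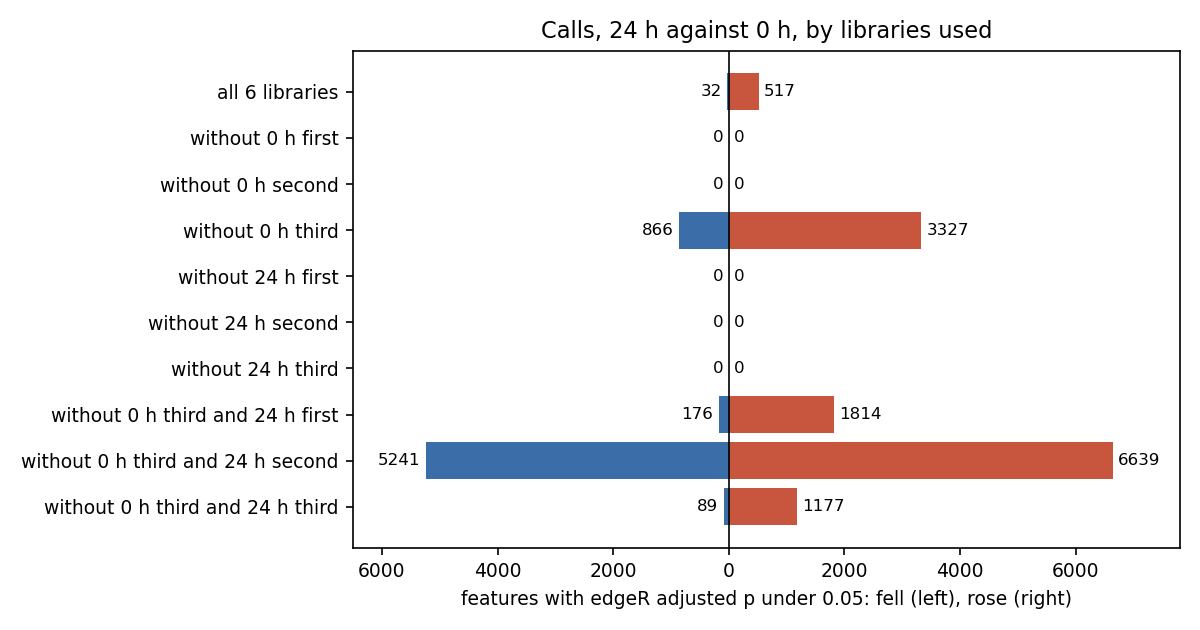
Number of features with an edgeR adjusted p under 0.05 (horizontal), with falls to the left in blue and rises to the right in red, for the 6 libraries and for each set of libraries left out. Bars run from 0 to 6639 rises and 5241 falls. Calls are seen only where all 6 libraries were used or the third 0 h library was left out.

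Among the edgeR calls, falls were affected more than rises. Rises made up 94.2% of the calls with all 6 libraries, 79.3% without the third 0 h library and 55.9% without the second 24 h library as well. Falls called without the third 0 h library had smaller folds, with a median log2 fold change of -1.8 against 2.86. The share of rises also depended on the test. With DESeq2 it was 73.7% with all 6 libraries and 68.6% without the third 0 h library. With limma-voom, which weights libraries by quality, it was 59.8% and 52.4%. In the class of 100 CPM and above, where edgeR called 27 rises and 0 falls with 6 libraries, it called 151 rises and 37 falls without the third 0 h library. Without both libraries it called 246 and 153. The share called rose with abundance in each of these fits, to 19.1% and 40.5% in that class.

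**Figure D4:**
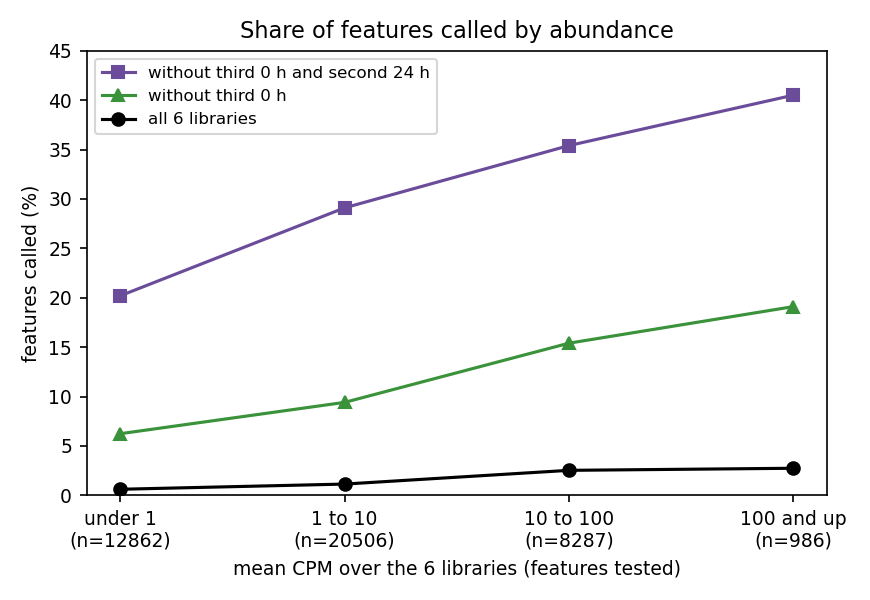
Share of tested features called by edgeR in percent (vertical) in 4 classes of mean CPM (horizontal, with the number tested), for 3 sets of libraries. The share rises from 0.614% to 2.74% with 6 libraries, from 6.24% to 19.1% without the third 0 h library and from 20.2% to 40.5% without the second 24 h library as well.

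The third 0 h library had no part in the test that called features without it, although the filter on low counts and the scaling to CPM had used all 6 libraries. The 3327 rises of that fit had medians of 0.83 and 0.755 CPM in the first and second 0 h libraries, 2.12 CPM in the third, and 6.79, 5.34 and 7.59 CPM at 24 h. The median of the third 0 h library was thus above those of its group mates and below those of all 24 h libraries. These features held 3.02% and 2.66% of the tested counts in the first and second 0 h libraries, 7.12% in the third, and 12.3% to 15.3% at 24 h.

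For the 866 falls of that fit, the medians were 9.61 and 10.5 CPM in the first and second 0 h libraries, 4.01 CPM in the third, and 2.55, 3.38 and 2.4 CPM at 24 h. Here the median of the third 0 h library was nearer to those at 24 h than to those of its group mates. The falls held 4.15% and 3.71% of the tested counts in the first and second 0 h libraries, 1.74% in the third and 1.21% to 1.85% at 24 h.

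Feature by feature, the third 0 h library did not take 1 side. Of the 3327 rises called without it, it was at or beyond the 0 h side in 29%, strictly between the times in 47.5%, and at or beyond the nearest 24 h library in 23.4%. Of the 866 falls these shares were 25.9%, 31.3% and 42.8%. It thus reached the 24 h range more often on falls than on rises. The times also lay closer together on falls, with a median log2 fold change of -1.8 against 2.86 on rises in that fit. Whether the shares differ for that reason was not tested.

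The same was done for the third 0 h and second 24 h libraries on the features called from the other 4. A position was scaled from the mean of the first and second 0 h libraries (0) to the mean of the first and the third 24 h libraries (1) on log2(CPM + 1). On the 6639 rises the median position was 0.458 for the third 0 h library and 0.638 for the second 24 h library. On the 5241 falls it was 1.01 for the third 0 h library and 0.465 for the second 24 h library. On these falls the median of the library labelled 0 h was thus at the level of the first and the third 24 h libraries, and the second 24 h library was midway. Spread was wider for the third 0 h library, with quartiles of 0.061 and 0.943 on rises and 0.51 and 1.3 on falls, against 0.39 and 0.864 and 0.25 and 0.673 for the second 24 h library. The falls held 19.6% and 21.3% of the tested counts in the first and second 0 h libraries, 6.99% in the third, and 7.84%, 12.4% and 5.97% in the 24 h libraries.

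The first and the third 24 h libraries were placed in the same way, each on the features called without it and without the third 0 h library, with the other 24 h libraries as the scale. The first had a median position of 0.943 on 1814 rises and 0.901 on 176 falls, and the third had 1.12 on 1177 rises and 1.04 on 89 falls. Both were thus nearer to position 1 than the second was, though on unlike scales. For these libraries the end point 1 includes the second 24 h library, which lay between the times. On these sets the third 0 h library had medians of 0.305 and 0.344 on rises and of 0.487 and 0.66 on falls, so its place on falls differed with the set of features. The sets differ in size and in the libraries that chose them. The first and second 0 h libraries were not placed, since leaving out either left 0 calls.

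**Figure D5:**
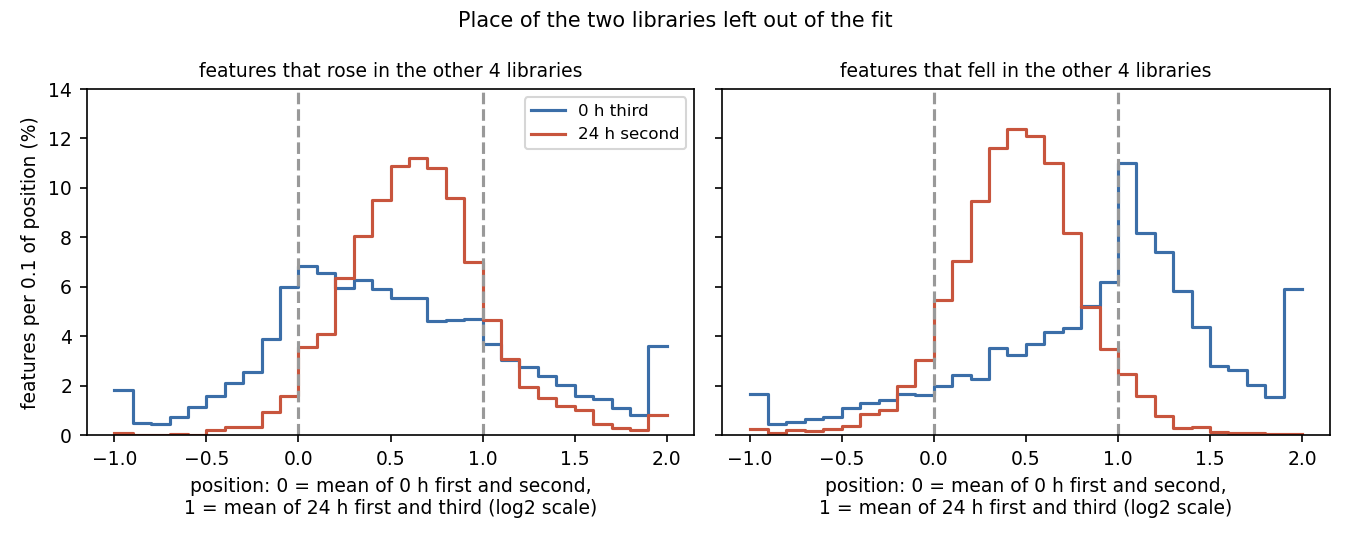
Distribution of the position of the third 0 h library (blue) and the second 24 h library (red) over 6639 features that rose (left) and 5241 that fell (right) in the other 4 libraries, in percent of features per bin of 0.1, where the end bins also hold what lies beyond. The blue line is broad on rises and has its peak just above 1 on falls, with a median of 1.01. The red line has its peak between 0 and 1 in both panels.

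A measure that needs no test was also taken for each of the 6 libraries. For each library, features were taken that the other 5 kept apart by time, and those that stayed apart once it was added were counted. The features that stayed apart were the same for every library, 6268 higher and 4757 lower at 24 h. The shares thus differ only by the size of the starting set. The third 0 h library had already narrowed the starting sets of all the others, so the shares are not on an equal footing. The third 0 h library kept 54.5% of 11509 features higher at 24 h and 45.1% of 10557 lower at 24 h. The second 24 h library kept 72.6% of 8639 and 68.4% of 6954. The other 4 libraries kept 81.6% to 90.8% of the higher and 76.8% to 85.7% of the lower features. Every library kept a smaller share of the lower than of the higher features.

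A fit in which libraries far from their group count less gave a like ranking. The quality weights that limma-voom estimated were 3.98, 0.974 and 0.172 for the 0 h libraries and 1.09, 0.524 and 2.62 for the 24 h libraries, so the third 0 h library had the lowest weight and the second 24 h library the next lowest. In this fit 8098 features rose and 5434 fell, 31.7% of tested features, and all 549 calls of edgeR were among them. The weights were estimated from these same values, which favours more calls. DESeq2 with all 6 libraries called 2652 rises and 948 falls, 8.44%, again with all 549 among them. Both tests called many more features, and the 549 did not overlap between times, so their inclusion was all but fixed in advance. Which biological or technical difference sets the third 0 h library apart was not tested.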

How the data were processed

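RNA of the distal forelimb was sequenced with a TruSeq RNA kit as read pairs of 100 bp, about 50000000 aimed at per library, per the labels' protocols. The authors deposited expected counts per assembled feature, made with RSEM per the labels. For its version, the aligner and the assembly the sources used here give nothing. The deposited table had 0 unused columns of values. The tables of the other species were not used, since their features cannot be matched to these.

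Expected counts were rounded to whole numbers. Features were kept by filterByExpr (minimum count 10, minimum total 15), scaled by TMM and tested with edgeR 4.0.16 (older quasi-likelihood method) in R 4.3.3, with time as the only term. DESeq2 1.42.0 and limma 3.58.1 gave alternatives. Scripts were tested on simulated data with a smaller spread than here and no outlying library. That check does not show how the tests behave with such a library. SEs are the absolute unshrunken log2 fold change divided by the square root of F. Fits that leave out libraries keep the 42641 tested features. A count was called whole within 0.01. Floors cover counting error only.

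Named features are the 2 rises and 2 falls with the largest change in mean CPM among calls whose libraries do not overlap between times. The members, rules and alternatives were chosen with earlier results of these data known. Library numbers are accession order and pair nothing. No libraries of the same time were duplicates: 2 libraries of a time differed by a mean chi-square of 29.3 to 153 per feature. Pairs across times were not compared in this way, and their r was at most 0.911.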

Additional observations from a re-analysis of the deposited data

How the results depend on the processing

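The counts stayed within 1.5 times of 517 rises and 32 falls with DESeq2-type size factors, upper quartile normalization, robust dispersions and unrounded counts. They also did so with whole-count features, a log2 fold change of at least 1 and library sizes over all features. Of these, whole-count features came nearest to that limit, with 47 falls. Library totals alone gave 917 rises and moved the median log2 fold change of all features from -0.09 to 0.018. The newer quasi-likelihood method gave 912 rises and 91 falls, the DESeq2 test 2652 and 948, limma-voom with sample weights 8098 and 5434, and no filter on low counts 2368 and 895. Falls numbered 51 among features of at least 5 CPM and 90 among summed components. Leaving out 1 library gave 0 to 3327 rises and 0 to 866 falls, where the highest values are those without the third 0 h library. Without the third 0 h library and the first, the second or the third 24 h library, rises numbered 1814, 6639 and 1177 and falls 176, 5241 and 89. With alternatives chosen after seeing the data, the filter set again without 1 library gave 0 to 3395 rises and 0 to 1081 falls. DESeq2 without 1 library gave 927 to 5107 rises and 160 to 2342 falls. Limma-voom without the third 0 h library gave 6570 and 5972. Apart from the libraries left out, the cause of these differences was not tested. Of 139 values of the 4 named features under alternatives, 98 kept their call, 41 lost it with the same sign and 0 reversed. A reversal was hardly possible, since these features were picked among calls whose libraries do not overlap between times. No paired analysis was possible because the labels give no replicate numbers. At 3 libraries against 3 with this spread, a feature that missed the threshold is not shown to be unchanged.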
